A study of Rattus norvegicus with 15 samples.

Results

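The genes described here are 6 aquaporins, the channels that carry water and small uncharged solutes across cell membranes: Aqp8, Aqp9, Aqp1, Aqp3, Aqp7 and Aqp11. They were selected by gene symbol from the 14506 genes tested, on arrays of primary rat hepatocytes exposed to flutamide. The selection rule took the probe set of highest mean level where a gene had several, but each of the 6 genes had 1 probe set, so no measured level decided which was used. The genes were proposed with earlier results of these data known, so their dose differences are given as a description and the test over all genes is printed beside them only for scale.

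Flutamide is a nonsteroidal antiandrogen whose use is limited by liver injury. Freshly isolated rat hepatocytes were grown in collagen-coated microfluidic biochips, small chambers under flow, left to adhere in serum medium with insulin, and then perfused for 24 h with serum-free medium holding insulin, transferrin and selenium in all groups. The groups were DMSO solvent (5 arrays), 10 µM flutamide (6 arrays) and 100 µM flutamide (4 arrays), with 1 biochip for each array. The titles number the biochips 10 to 16 (number run 1, 7 arrays) and 20 to 27 (number run 2, 8 arrays). All 3 groups are present in either run, and what the runs stand for is not stated in the labels. Strain, age and sex of the rats are not given, nor whether the biochips hold cells of separate animals, so the error terms measure only the spread between these arrays.

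Hepatocytes secrete bile by pumping bile salts and other solutes into the canaliculus, and water follows through aquaporins. Classical aquaporins pass mainly water, aquaglyceroporins also pass glycerol and urea, and some members pass ammonia or hydrogen peroxide. In rat hepatocytes Aqp8 sits in vesicles that move to the canalicular membrane on hormonal stimulation and in the inner mitochondrial membrane, whereas Aqp9 lies in the sinusoidal membrane facing the blood and takes up glycerol for glucose synthesis.

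Aqp8 was the member with the largest differences. Its level was lower than in DMSO at both doses, with log2 differences of -0.89 at 10 µM and -1.33 at 100 µM, and lower in both number runs. The differences of the other 5 members lay between -0.63 and 0.14 at 10 µM and between -0.35 and 0.14 at 100 µM. No member passed an adjusted p under 0.05 at either dose, nor did any other of the 14506 genes tested, so none of these differences is called a change.

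The promoters of Aqp8, on which the results turn, and of Aqp9, the other main hepatocyte channel, are shown for comparison from RefSeq (assembly GRCr8). Each is the 250 bases before the annotated start, read 5′ to 3′ on the gene's strand. Aqp8 lies on the plus strand, chr1:187424193-187424442, and Aqp9 on the minus strand, chr8:80718189-80718438. Capitals mark matches to any of 6 motifs searched on both strands: AGAACA (androgen and glucocorticoid receptors), AGGTCA (many nuclear receptors), GCGTG (core of the aryl hydrocarbon receptor element), GTTAAT (HNF1), TATAAA and CCAAT.
Aqp8: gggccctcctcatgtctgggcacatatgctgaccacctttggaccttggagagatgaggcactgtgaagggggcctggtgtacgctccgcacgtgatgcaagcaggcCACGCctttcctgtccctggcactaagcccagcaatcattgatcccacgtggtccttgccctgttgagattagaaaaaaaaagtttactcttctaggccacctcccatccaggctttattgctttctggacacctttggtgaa
Aqp9: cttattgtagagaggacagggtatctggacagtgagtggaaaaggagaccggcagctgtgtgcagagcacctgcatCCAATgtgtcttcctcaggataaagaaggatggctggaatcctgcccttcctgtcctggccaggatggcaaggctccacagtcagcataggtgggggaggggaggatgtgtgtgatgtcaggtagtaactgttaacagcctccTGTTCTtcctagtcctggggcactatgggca
The Aqp8 window held 1 match, GCGTG on the opposite strand (printed as CACGC), at bases -143 to -139 from the start. That motif is in 25.9% of all 33469 rat promoter windows of this length. The Aqp9 window held CCAAT at -174 to -170 (34.0% of windows) and AGAACA on the opposite strand, printed as TGTTCT, at -31 to -26 (17.5% of windows). AGGTCA (14.1% of windows), GTTAAT (6.45%) and TATAAA (12.9%) were not found in either window. TATAAA stood at -30 to -25 in Aqp1 and at -38 to -33 in Aqp3, and GCGTG at -160 to -156 and at -39 to -35 in Aqp11. No promoter sequence was available for Aqp7, so it was not searched. The Aqp8 and Aqp9 windows were 53.6% and 54.0% G and C, against a median of 51.2% over all windows. These matches of letters are a description and say nothing of binding.

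Aqp8, the canalicular and mitochondrial channel that also passes ammonia and hydrogen peroxide, had log2 levels of 7.75, 7.48 and 7.21 on the run 2 DMSO arrays and 7.04 and 6.49 on the run 1 DMSO arrays. At 10 µM it had 6.31, 7.01 and 5.89 in run 2 and 6.08, 6.08 and 6.37 in run 1. At 100 µM it had 5.72 and 5.46 in run 2 and 5.95 and 6.23 in run 1. All 4 of the 100 µM arrays lay below every DMSO array, and 5 of the 6 of the 10 µM arrays lay below the lowest DMSO array, array 24 at 7.01 being the exception. Over all genes, 0.931% had all 100 µM arrays below all DMSO arrays. Group means were 7.19 ± 0.47 in DMSO (SD, n = 5), 6.29 ± 0.39 at 10 µM (n = 6) and 5.84 ± 0.33 at 100 µM (n = 4).

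**Figure D1:**
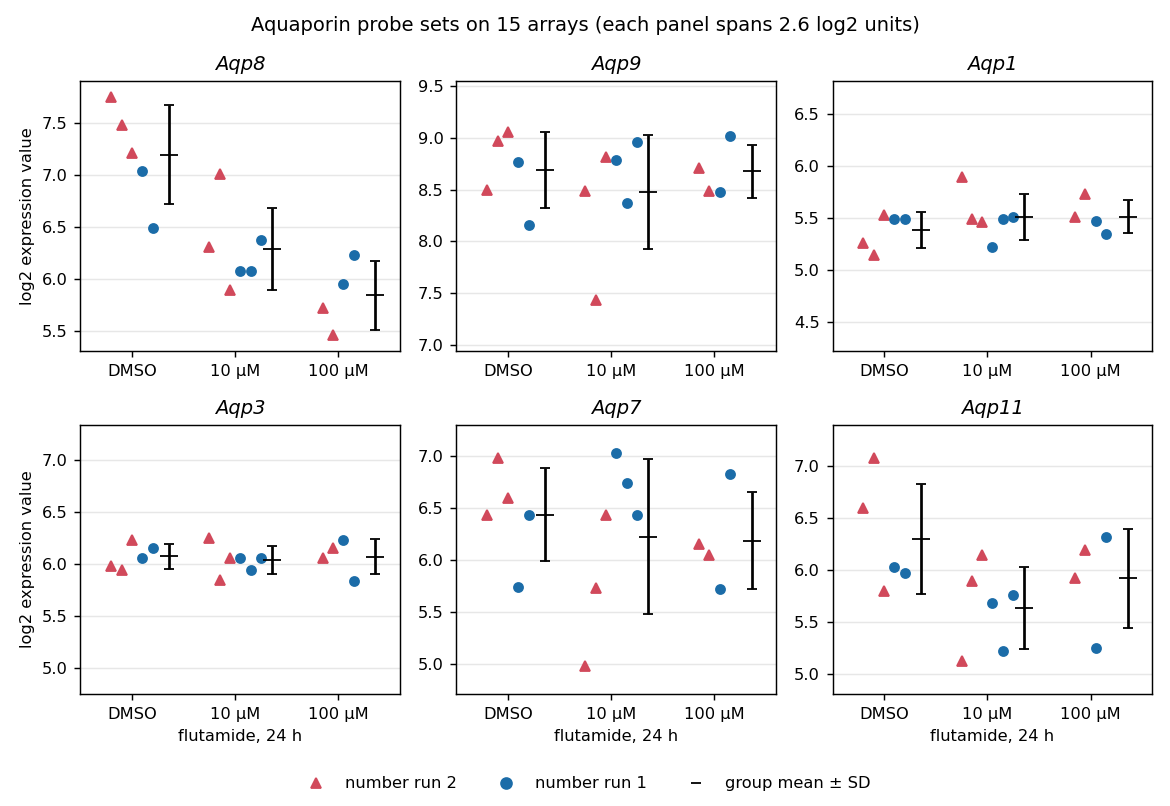
Log2 expression value of the 6 aquaporin probe sets on each of the 15 arrays by dose, with triangles for number run 2, circles for number run 1, and the group mean ± SD in black. Each panel spans the same log2 range. The 4 Aqp8 values at 100 µM, 5.46 to 6.23, lie below the 5 DMSO values, 6.49 to 7.75; the groups of the other 5 genes overlap.

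Against DMSO, Aqp8 had a log2 difference of -0.89 at 10 µM (SE 0.23, 95% interval -1.37 to -0.40, adjusted p = 0.35 in limma). At 100 µM the difference was -1.33 (SE 0.25, 95% interval -1.87 to -0.80, adjusted p = 0.356), which is 2.52-fold lower. In these bulk samples, fewer cells of a type and less RNA per cell cannot be told apart. Neither dose difference passed, and 0% of the 14506 genes were called in either comparison. At an unadjusted p under 0.05, 1109 genes differed at 10 µM, of which 554 (3.82% of all) were lower, and 993 differed at 100 µM, of which 496 (3.42% of all) were lower. Aqp8 was among the lower genes at both doses and Aqp11 at 10 µM. The direct comparison of 100 µM with 10 µM gave -0.45 for Aqp8 (SE 0.24, 95% interval -0.96 to 0.07, adjusted p = 0.93), which did not pass, and this comparison also called 0% of genes (723 at an unadjusted p under 0.05).

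Aqp8 was lower in both number runs, with the larger values in run 2, although the difference between the runs did not pass. At 10 µM it was -1.08 in run 2 (SE 0.28) and -0.59 in run 1 (SE 0.19). At 100 µM it was -1.89 in run 2 (SE 0.31) and -0.68 in run 1 (SE 0.21). Relative to the DMSO mean of its own run, Aqp8 was lower on 6 of 6 arrays at 10 µM (differences of -1.59 to -0.40) and on 4 of 4 arrays at 100 µM (-2.02 to -0.54). Within each run every flutamide array lay below every DMSO array; Aqp8 was the only one of the 6 members with this order, which 22 of all 14506 genes (0.152%) had. This order was looked for after the values were seen. Without the 3 arrays of lowest quality weight (10 µM arrays 23 and 24 and 100 µM array 15), the Aqp8 difference was -1.06 at 10 µM and -1.40 at 100 µM.

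**Figure D2:**
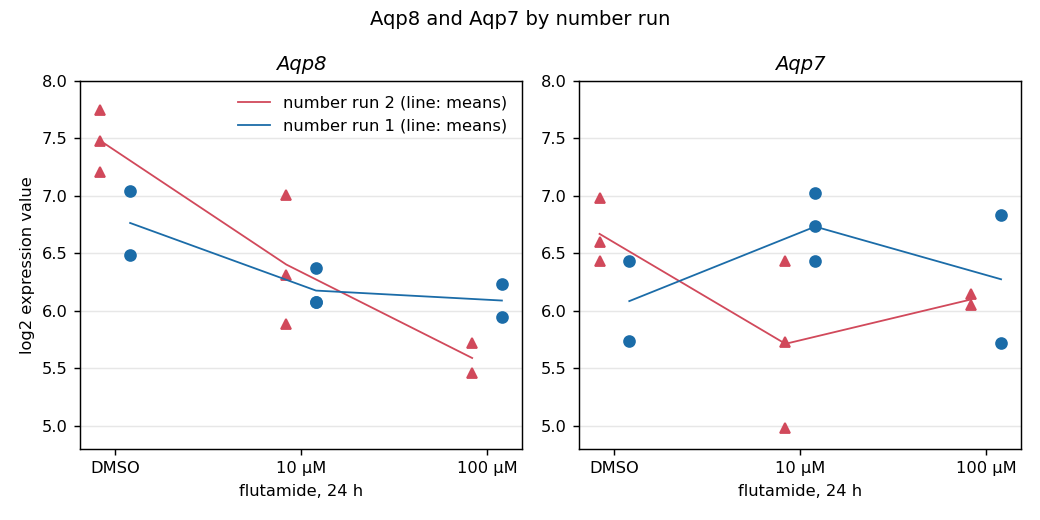
Log2 expression value of Aqp8 and Aqp7 by dose, with triangles for number run 2 and circles for number run 1, and lines through the means of each run. For Aqp8 both lines descend, in run 2 to 5.59 at 100 µM; for Aqp7 at 10 µM the run means are 5.71 in run 2 and 6.73 in run 1.

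The DMSO mean of Aqp8 was 7.48 in run 2 and 6.77 in run 1, and the 100 µM mean was 5.59 in run 2 and 6.09 in run 1. The runs thus differed in opposite directions in the controls and at the higher dose. The difference of the 100 µM effect between runs was -1.21 (run 2 minus run 1, SE 0.42, 95% interval -2.12 to -0.30, adjusted p = 0.77) and did not pass, in a comparison that called 0.00689% of genes. For 10 µM it was -0.49 (SE 0.38, adjusted p = 0.668; -0.79 to -0.21 with single arrays left out), in a comparison that called 0.0414% of genes. Averaged over the groups, run 2 against run 1 gave 0.19 for Aqp8 (SE 0.19, adjusted p = 0.799), where 0.545% of all genes were called.

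Aqp9, the sinusoidal aquaglyceroporin for glycerol and urea, did not separate by dose. Its log2 levels were 8.77, 8.16, 8.50, 8.97 and 9.05 on the DMSO arrays. They were 8.78, 8.37, 8.96, 8.49, 7.44 and 8.81 at 10 µM, and 8.48, 9.02, 8.71 and 8.49 at 100 µM. The 3 groups overlapped, and array 24 at 10 µM was the lowest of the 15. The difference from DMSO was -0.22 at 10 µM (SE 0.25, 95% interval -0.75 to 0.30, adjusted p = 0.902) and -0.03 at 100 µM (SE 0.27, 95% interval -0.61 to 0.56, adjusted p = 0.99). The runs had opposite signs, with -0.59 in run 2 and 0.24 in run 1 at 10 µM, and -0.24 in run 2 and 0.28 in run 1 at 100 µM. Without array 24 the 10 µM difference was 0.01.

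Aqp11, an intracellular aquaporin of the endoplasmic reticulum whose loss in mice leaves vacuoles in kidney tubule cells and hepatocytes, was next in size after Aqp8. Its log2 levels were 6.03, 5.97, 6.60, 7.08 and 5.80 in DMSO, with the highest value on array 21. They were 5.68, 5.22, 5.76, 5.12, 5.89 and 6.14 at 10 µM, and 5.25, 6.32, 5.92 and 6.19 at 100 µM. The groups overlapped at both doses. The 10 µM difference was -0.63 (SE 0.25, 95% interval -1.17 to -0.10, adjusted p = 0.554), and all 6 of the 10 µM arrays lay below the DMSO mean of their run (differences of -1.38 to -0.24). At 100 µM the difference was -0.35 (SE 0.28, 95% interval -0.94 to 0.24, adjusted p = 0.829), with 3 of 4 arrays lower. Without the 3 arrays of lowest quality weight the differences were -0.48 and -0.18. In run 2 and run 1 alone the difference was -0.78 and -0.45 at 10 µM, and -0.45 and -0.21 at 100 µM.

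Aqp7, an aquaglyceroporin known for releasing glycerol from adipocytes, varied widely without an order by dose. Its log2 levels were 5.74, 6.43, 6.43, 6.98 and 6.60 in DMSO. They were 7.03, 6.74, 6.43, 4.98, 5.73 and 6.43 at 10 µM, and 5.72, 6.83, 6.15 and 6.05 at 100 µM. The lowest value was on array 23, which also stood apart from the other arrays over all genes, with a median correlation of 0.962 and the lowest quality weight, 0.205. The differences from DMSO were -0.24 at 10 µM (SE 0.33, adjusted p = 0.93) and -0.28 at 100 µM (SE 0.36, adjusted p = 0.913), and without array 23 the 10 µM difference was 0.02. Its sign also differed by run, with -0.96 in run 2 and 0.65 in run 1 at 10 µM, and -0.57 in run 2 and 0.19 in run 1 at 100 µM. The difference of the 10 µM effect between runs was -1.61 (SE 0.54, 95% interval -2.78 to -0.43, adjusted p = 0.377) and did not pass.

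Aqp1, the water channel of red blood cells, endothelium and bile duct epithelium, lay in a narrow band at a low level. Its DMSO mean was 5.38, between those of Aqp12a (4.64) and Aqp5 (5.75), other aquaporins of low level. Without a detection value, these data do not show that Aqp1 is expressed in these cells. Its log2 levels were 5.49, 5.49, 5.26, 5.14 and 5.53 in DMSO. They were 5.22, 5.49, 5.51, 5.90, 5.49 and 5.46 at 10 µM, and 5.47, 5.35, 5.51 and 5.73 at 100 µM. The groups overlapped, with the highest value on array 23 at 10 µM. The difference from DMSO was 0.14 at both doses (SE 0.11 at 10 µM and 0.13 at 100 µM, adjusted p = 0.844 and 0.861). In run 2 alone it was 0.31 at both doses, and in run 1 alone it was -0.08 at both.

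Aqp3, the aquaglyceroporin of skin and of the kidney collecting duct, varied least, with a range of 0.41 over the 15 arrays. Its log2 levels were 6.06, 6.16, 5.98, 5.94 and 6.23 in DMSO. They were 6.06, 5.94, 6.06, 6.25, 5.85 and 6.06 at 10 µM, and 6.23, 5.84, 6.06 and 6.16 at 100 µM. The groups overlapped, and the differences were -0.04 at 10 µM (SE 0.09, 95% interval -0.23 to 0.16, adjusted p = 0.975) and -0.00 at 100 µM (SE 0.10, 95% interval -0.22 to 0.22, adjusted p = 0.998). The sign of both depended on the run and on single arrays, and that at 100 µM also on a renewed quantile normalization, which gave 0.02. Aqp3 and Aqp7 lie near each other on chromosome 5 with 1 gene between them, which is not protein-coding in RefSeq.

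**Figure D3:**
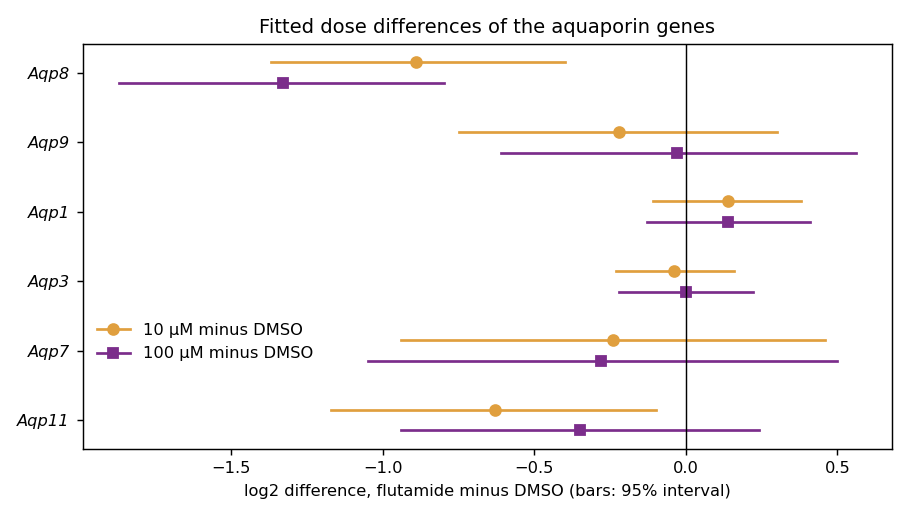
Fitted log2 difference of each aquaporin from DMSO, with circles for 10 µM, squares for 100 µM and bars for the 95% interval. The Aqp8 intervals, -1.37 to -0.40 and -1.87 to -0.80, and the Aqp11 interval at 10 µM, -1.17 to -0.10, leave out 0; the others include it.

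The 6 members also differed in how much they varied over the arrays. The range over the 15 arrays was 2.28 for Aqp8, 2.06 for Aqp7, 1.96 for Aqp11, 1.61 for Aqp9, 0.76 for Aqp1 and 0.41 for Aqp3. Some probe sets held exactly the same deposited value on several arrays: Aqp7 had 6.43 on arrays 11, 20, 14 and 25, and Aqp1 had 5.49 on arrays 10, 13 and 24. Such repeats on at least 3 arrays were found for 2925 of the 14506 genes (20.2%), whereas Aqp8, Aqp9 and Aqp11 had 15 distinct values each. Run 2 against run 1, averaged over the groups, gave 0.30 for Aqp11 (SE 0.21), 0.08 for Aqp1 (SE 0.10), 0.02 for Aqp3 (SE 0.08), -0.10 for Aqp9 (SE 0.21) and -0.27 for Aqp7 (SE 0.28), and none of these passed.

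Of the 6 members, 5 were lower than DMSO at each dose, with a median difference of -0.23 at 10 µM and -0.15 at 100 µM. At 100 µM the lower members include Aqp3 at -0.00 and Aqp9 at -0.03, and only the 95% interval of Aqp8 left out 0. After a renewed quantile normalization 5 were lower at 10 µM and 4 at 100 µM. With array quality weights 4 were lower at each dose (medians -0.05 and -0.09). In run 2 alone 4 were lower at each dose (medians -0.69 and -0.34), and in run 1 alone also 4 (medians -0.09 and -0.08), so the median depended on the run. Over all genes tested the medians were -0.003 and 0.019, and 50.9% and 44.3% of genes were lower. The 6 other aquaporins on the array had low levels, with DMSO means from 4.64 for Aqp12a to 5.75 for Aqp5. Over all arrays Aqp12a, Aqp6 and Aqp4 averaged 4.75, 4.97 and 4.84, under the level of 5 used to leave out dim genes. Without a detection value, these data do not show that they are expressed in these cells. Their differences were -0.04 to 0.14 at 10 µM, and all 6 were higher at 100 µM, although Aqp2 was at -0.01 after renewed normalization. At 100 µM Aqp12a, known from the exocrine pancreas, stood at 0.22 (SE 0.08, adjusted p = 0.682), Aqp4 of astrocytes at 0.17, Aqp6 of kidney intercalated cells at 0.17, Aqp5 of glands at 0.13, Mip of the eye lens at 0.12 and Aqp2, the vasopressin-regulated kidney channel, at 0.01. None of the 12 aquaporins passed at either dose.

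Aquaporins work beside transporters and enzymes for the same solutes, which were taken as 6 lists of genes. No gene of these lists was called at either dose, and the counts below are a description. Among bile canalicular and sinusoidal transport genes, 17 of 19 were lower at 10 µM (median -0.25) and 18 of 19 at 100 µM (median -0.26). The 10 µM count was not alike in the runs, with 15 of 19 lower in run 2 (median -0.40) and 9 of 19 in run 1 (median 0.01). At 100 µM the counts were 17 in run 2 and 14 in run 1.

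Within that list Slco1b2, the sinusoidal uptake carrier for organic anions, averaged 5.02 ± 0.15 at 10 µM (n = 6) and 5.63 ± 0.27 in DMSO (n = 5). At 100 µM Slco1b2 averaged 4.83 ± 0.33 (n = 4). These means lie in the low range of the 6 other aquaporins in DMSO, 4.64 to 5.75, and no detection value is given. The difference from DMSO was -0.61 at 10 µM (SE 0.15, adjusted p = 0.317) and -0.81 at 100 µM (SE 0.16, adjusted p = 0.356). Slc4a2, the canalicular chloride and bicarbonate exchanger found in vesicles with Aqp8, was at -0.24 at 10 µM (SE 0.09, adjusted p = 0.539). Abcb4, the canalicular phospholipid exporter, was at -0.53 at 100 µM (SE 0.17, adjusted p = 0.649).

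For the genes of glycerol and triglyceride handling, on the path served by Aqp9 and Aqp7, 8 of 15 were lower at 10 µM (median -0.03) and 12 of 15 at 100 µM (median -0.10). At 100 µM the count was 11 in run 2 (median -0.19) and 8 in run 1 (median -0.03), and 9 with array quality weights. The monoglyceride lipase gene Mgll stood at -0.99 at 10 µM (SE 0.23, adjusted p = 0.317) and at -0.64 at 100 µM (SE 0.26, adjusted p = 0.698). By run, Mgll was at -1.48 in run 2 and -0.34 in run 1 at 10 µM, and at -1.13 in run 2 and 0.01 in run 1 at 100 µM. Agpat2, an acyltransferase of triglyceride synthesis, was at -0.88 and -0.74 (SE 0.23 and 0.25, adjusted p = 0.35 and 0.651). Its values were -1.27 in run 2 and -0.37 in run 1 at 10 µM, and -1.05 in run 2 and -0.31 in run 1 at 100 µM.

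Among genes of ammonia and urea handling, solutes passed by Aqp8 and Aqp9, 6 of 11 were lower at 10 µM (median -0.13) and 8 of 11 at 100 µM (median -0.27). After a renewed quantile normalization 8 of 11 were lower at 10 µM too. The 100 µM median was -0.49 in run 2 and 0.03 in run 1. The ammonium transporter gene Rhbg was at -0.46 at 10 µM (SE 0.12, adjusted p = 0.35) and at -0.49 at 100 µM (SE 0.14, adjusted p = 0.628). Nags, which makes the activator of the first urea cycle enzyme, was at -0.49 at 10 µM (SE 0.21, adjusted p = 0.61). Slc25a15, the mitochondrial ornithine carrier, was at -0.56 at 100 µM (SE 0.23, adjusted p = 0.708) but at 0.02 in run 1 alone.

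Genes of hydrogen peroxide handling, another solute of Aqp8, were near evenly split by sign. Of 15 genes, 8 were lower at 10 µM (median -0.04) and 9 at 100 µM (median -0.05). The differences ran from -0.31 to 0.14 at 10 µM and from -0.32 to 0.15 at 100 µM. At an unadjusted p under 0.05 in limma, 2 were lower and 0 higher at 10 µM, and 3 lower and 0 higher at 100 µM. Over all genes 3.82% were lower at 10 µM and 3.42% at 100 µM by this measure. Other lists had such genes too. The transport list had 3 and 4 of 19 lower and the ammonia and urea list 4 and 4 of 11, with 0 higher in both. The cell volume list had 0 lower and 1 higher at 10 µM. The glutathione peroxidase gene Gpx1 was at -0.31 and -0.30 (SE 0.10 and 0.11, adjusted p = 0.431 and 0.663). Gpx4, the peroxidase for lipid peroxides, was at -0.29 at 10 µM (SE 0.13, adjusted p = 0.639; -0.16 without DMSO array 10) and Prdx2, a peroxiredoxin, was at -0.26 at 100 µM (SE 0.12, adjusted p = 0.726).

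Genes of the cell volume and osmotic response were split, with 6 of 12 lower at both doses (medians 0.01 and -0.00). Nfat5, the tonicity-responsive transcription factor, stood at 0.28 at 10 µM (SE 0.09, adjusted p = 0.472), and Wnk4, a kinase of salt transport, at 0.10 (SE 0.06, adjusted p = 0.751). At 100 µM the amino acid carrier gene Slc38a2 stood at 0.26 (SE 0.12, adjusted p = 0.736) and the kinase gene Oxsr1 at -0.44 (SE 0.24, adjusted p = 0.774). Without 100 µM array 15 Oxsr1 was at -0.22.

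Of the hormone and nuclear receptor regulators, 9 of 14 were lower at each dose, with medians of -0.14 and -0.18. At 10 µM Hnf4a, a master regulator of hepatocyte genes, was at -0.62 (SE 0.20, adjusted p = 0.439) but at 0.02 in run 1 alone, and the bile acid receptor gene Nr1h4 was at -0.44 (SE 0.18, adjusted p = 0.578). At 100 µM the insulin receptor substrate gene Irs1 was at -0.56 (SE 0.17, adjusted p = 0.649) and Ppara, the fasting-activated receptor of fatty acid oxidation, was at -0.63 (SE 0.30, adjusted p = 0.728). Ppara was at -0.18 in run 2 alone and -1.20 in run 1 alone, and at -0.31 without 100 µM array 15.

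**Figure D4:**
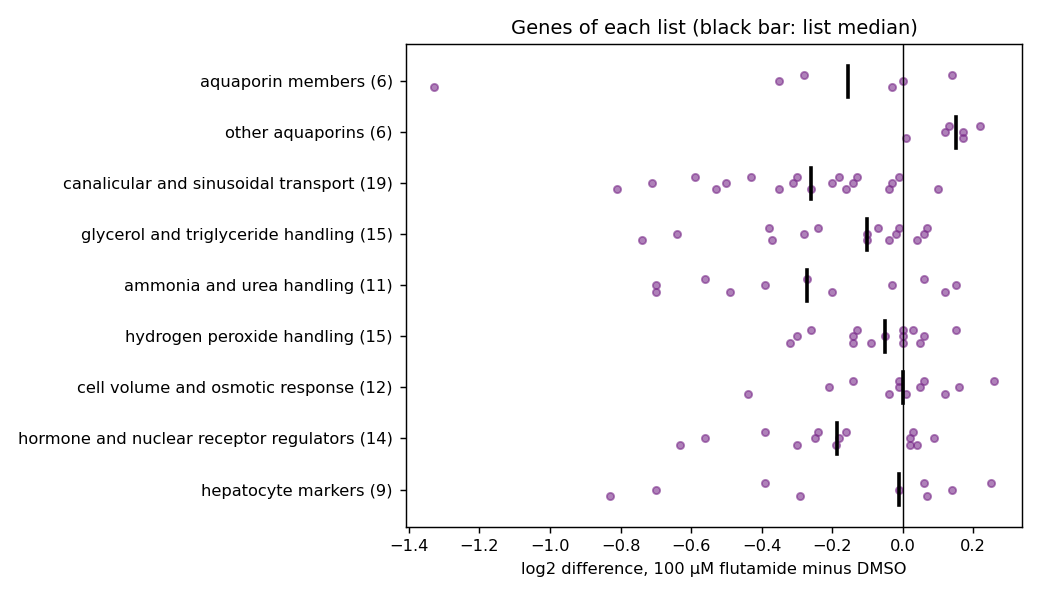
Log2 difference of each gene at 100 µM from DMSO, by list, with the number of measured genes in brackets and a black bar at the list median. The transport list lies mostly below 0 (18 of 19 genes, median -0.26), and Aqp8 at -1.33 lies farther from 0 than any other gene drawn; after a renewed quantile normalization 4 of 6 rather than 5 of 6 members lie below 0.

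The labelled cell type was checked with 9 hepatocyte markers, all measured, whose mean log2 level on an array was 10.68 to 10.87 in DMSO, 10.54 to 11.16 at 10 µM and 10.40 to 10.75 at 100 µM. Against DMSO 4 of 9 were lower at 10 µM (median 0.10) and 5 of 9 at 100 µM (median -0.01). The list was split, with differences from -0.62 to 0.41 at 10 µM. At 100 µM Cyp2e1 was at -0.83, Cps1 at -0.70, Hnf4a at -0.39, Tat at -0.29 and Tf at -0.01. Ttr was at 0.25, Serpina1 at 0.14, Alb at 0.07 and Apoa1 at 0.06. Taken over both runs, markers of cells known to express Aqp1 had overlapping means in the 3 groups. The means were 4.70 to 5.08 in DMSO, 4.54 to 5.23 at 10 µM and 4.67 to 4.92 at 100 µM for the 6 measured of 9 endothelial genes. For the 6 measured of 8 bile duct genes they were 5.29 to 5.41, 5.30 to 5.50 and 5.31 to 5.41. For the 4 measured of 6 red blood cell genes they were 4.96 to 5.26, 4.90 to 5.41 and 4.81 to 5.61. The endothelial means differed by run in the controls. In run 2 they were 5.06, 5.08 and 5.08 in DMSO, 5.23, 4.72 and 4.66 at 10 µM, and 4.78 and 4.92 at 100 µM. In run 1 they were 4.74 and 4.70 in DMSO, 4.54, 4.69 and 4.65 at 10 µM, and 4.81 and 4.67 at 100 µM. Of the endothelial genes, 6 of 6 were lower at 10 µM (median -0.12; 6 in run 2 and 4 in run 1) and 5 of 6 at 100 µM (median -0.12; 5 in run 2 and 3 in run 1). Of the bile duct genes 1 of 6 was lower at each dose (medians 0.02 and 0.01), but 4 of 6 at 100 µM after a renewed quantile normalization (median -0.02). Of the red blood cell genes, 2 of 4 were lower at 10 µM and 0 of 4 at 100 µM (median 0.11; 0 in run 2 and 2 in run 1).

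Means were 5.31 to 5.82 in DMSO, 5.35 to 6.22 at 10 µM and 5.40 to 5.57 at 100 µM for all 6 adipocyte genes, and 5.06 to 5.19, 5.00 to 5.39 and 5.11 to 5.21 for all 10 stellate cell and fibroblast genes. For all 9 Kupffer cell genes they were 5.69 to 6.57, 5.57 to 7.15 and 5.57 to 6.35, with the highest value on array 23. Of these 9 genes, 6 were lower at 10 µM (median -0.15; 4 in run 2 and 8 in run 1) and 8 at 100 µM (median -0.31). The 100 µM count was 8 in run 2 (median -0.73) and 4 in run 1 (median 0.03). The differences of the Kupffer cell genes ran from -0.47 to 1.17 at 10 µM and from -1.05 to 1.18 at 100 µM. The difference farthest from 0 at each dose was thus a higher value. The adipocyte means also differed by run. In run 2 they were 5.82, 5.76 and 5.72 in DMSO, 6.22, 5.68 and 5.49 at 10 µM, and 5.44 and 5.40 at 100 µM. In run 1 they were 5.57 and 5.31 in DMSO, 5.35, 5.36 and 5.38 at 10 µM, and 5.43 and 5.57 at 100 µM. The part of the cell type markers in the aquaporin values was not tested.

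The genes whose levels followed each member most closely over the 15 arrays were ranked by Pearson's r among all genes tested, as a description of arrays that share doses and runs. For Aqp8 they were Il33, a nuclear alarmin cytokine (r = 0.847, Spearman's rho = 0.753), and Creg1 (r = 0.846, rho = 0.814). Without the 2 arrays farthest from the median Aqp8 level r was 0.694 and 0.749. Within the runs r was 0.893 in run 2 and 0.583 in run 1 for Il33, and 0.92 in run 2 and 0.303 in run 1 for Creg1.

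For Aqp9 they were Srsf2 (r = 0.877, rho = 0.696) and Sec61a2 (r = 0.869, rho = 0.707), and without the 2 farthest arrays r was 0.492 and 0.532. For Aqp7 they were Prmt7 (r = 0.915, rho = 0.85) and Acsl5 (r = 0.911, rho = 0.843), with r of 0.868 and 0.807 without the 2 farthest. For Aqp11 they were Ptcd2 (r = 0.886, rho = 0.75) and Zfp629 (r = 0.883, rho = 0.729), with 0.846 and 0.764. For Aqp1 they were Abcg4 (r = 0.942, rho = 0.738) and Zscan5b (r = 0.934, rho = 0.861), both at 0.914 without the 2 farthest. For Aqp3 they were Gpc1 (r = 0.869, rho = 0.831) and Mgat5b (r = 0.868, rho = 0.878), with 0.812 and 0.912. Some of the genes named varied little over the 15 arrays. The log2 range was 0.20 for Gpc1, 0.40 for Zscan5b and 0.44 for Srsf2, and the widest was 2.08 for Sec61a2. Such r values do not show shared regulation.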

How the data were processed

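RNA of each biochip was hybridised to 1 Affymetrix rat gene array (15 in all). The values deposited by the authors are log2 levels of 29214 probe sets, made with RMA (background correction, quantile normalization and probe summary) and the Partek software, per the submitters' processing notes. The log2 scale was read from the range of the values, as the table does not name it. No version or setting is stated, and 0 columns belonged to no sample. Quantile normalization assumes alike distributions, so a shift common to all genes would not be seen. The table holds no detection value, and precision is limited by the number of arrays.

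Of the probe sets, 15633 had a platform annotation entry, 323 with several genes and 15310 with 1 symbol, of which 15279 were matched by gene ID to RefSeq GRCr8. The 13904 without a single gene were left out. The probe set of highest mean stood for each of 527 genes with several, leaving 14506 genes. Arrays were grouped by the titles. limma 3.58.1 in R 4.3.3 was fitted on log2 values of all 15 arrays with group and number run (11 residual degrees of freedom), and a gene was called where its p, adjusted by Benjamini-Hochberg across the 14506, was under 0.05. Differences between runs came from a fit with the interaction. The fits were tested on simulated data in which each gene had the same spread on every array. The quality weights of the real arrays ran from 0.205 to 1.89, so that test does not cover arrays of unequal quality. The members and all gene lists were chosen with earlier results of these data known. The text names all measured aquaporins, the 2 genes of lowest p per list and dose, and the 2 genes most like each member. Sequences are from RefSeq. Alternatives were no run term, renewed quantile normalization, array quality weights, only genes with a mean log2 level of at least 5, the mean of a gene's probe sets, uncollapsed probe sets, only the 2 groups compared, each run alone, and leaving out arrays. Pairs of arrays correlated at 0.955 to 0.994 and 0 pairs were identical.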

Additional observations from a re-analysis of the deposited data

How the results depend on the processing

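The number of arrays limits what these data can separate, and no aquaporin was called under any alternative. Aqp8 stayed lower in all alternatives, at -1.08 to -0.59 for 10 µM (25 settings, adjusted p 0.161 to 0.896) and -1.89 to -0.68 for 100 µM (25 settings, adjusted p 0.105 to 0.933), with -1.07 to -0.77 and -1.52 to -1.15 when single arrays were left out. Some settings could not move the Aqp8 difference. Aqp8 had 1 probe set, so the mean of probe sets, uncollapsed probe sets and leaving out dim genes kept -0.89 and -1.33. The 100 µM interaction of Aqp8 ranged from -1.49 to -0.93, its 10 µM interaction from -1.0 to -0.21 (-0.21 without DMSO array 11) and the 10 µM interaction of Aqp7 from -1.96 to -0.89, none passing. Over these settings 100 µM against 10 µM called 0 genes. No paired analysis was possible because each title number belongs to 1 biochip and no number is shared between groups. The cause of the shifts below was not tested.

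Counts of genes called over all genes shifted. For 10 µM against DMSO, 1 was called after renewed quantile normalization, 1 with array quality weights, 7 in run 2 alone and 0 to 1 with single arrays left out (1 without DMSO array 11 or DMSO array 22). For 100 µM, 1 was called in run 2 alone and 0 with any single array left out. For run 2 against run 1, 191 were called with quality weights and 37 to 129 with arrays left out, the lowest without DMSO array 11 and the highest without 10 µM array 23; counts were 44 without DMSO array 10, 51 without DMSO array 20, 45, 40 and 48 without 10 µM arrays 12, 13 and 14, and 49 and 46 without 100 µM arrays 16 and 26. For the 10 µM difference between runs, counts were 3 after renewed quantile normalization, 34 with quality weights, 2 without dim genes, 3 without the 3 arrays of lowest quality weight, and 2 to 116 with arrays left out (116 without 10 µM array 25). For the 100 µM difference they were 2 with quality weights, 5 without those 3 arrays, and 0 to 22 with arrays left out (22 without 100 µM array 16, 0 without DMSO array 10 or 100 µM array 27).

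The sign turned for the values that follow, apart from the ranges over all alternatives that close the paragraph. Of those ranges, only that of Hnf4a at 10 µM and that of Slc25a15 at 100 µM include both signs. In run 1 alone, Aqp9 was 0.24 at 10 µM and 0.28 at 100 µM, Aqp1 -0.08 at both doses, Aqp7 0.65 at 10 µM and 0.19 at 100 µM, Aqp2 -0.10, Aqp5 -0.05 and Aqp6 -0.14 at 10 µM, Hnf4a 0.02 at 10 µM, and Mgll 0.01 and Slc25a15 0.02 at 100 µM. In run 2 alone, Aqp3 was 0.00 at 10 µM and 0.06 at 100 µM, Mip 0.11 at 10 µM and Aqp2 -0.01 at 100 µM. With quality weights, Aqp9 was 0.06 at 100 µM, Aqp7 0.04 at 10 µM, and Aqp2 -0.04 at 10 µM and -0.01 at 100 µM. Without the 3 arrays of lowest weight (10 µM arrays 23 and 24 and 100 µM array 15), Aqp9 was 0.07 at 10 µM, 0.04 at 100 µM and 0.10 for run 2 against run 1, Aqp7 0.22, Aqp2 -0.06 and Aqp6 -0.03 at 10 µM. After renewed quantile normalization, Aqp3 was 0.02 and Aqp2 -0.01 at 100 µM, and with only the 2 groups compared Aqp2 was -0.00 at 100 µM. With single arrays left out, Aqp9 ranged from -0.41 to 0.01 at 10 µM, -0.21 to 0.07 at 100 µM and -0.24 to 0.07 between runs, Aqp3 from -0.08 to 0.01, -0.06 to 0.08 and -0.03 to 0.05, Aqp7 from -0.50 to 0.02 at 10 µM, Mip from -0.10 to 0.06, Aqp4 from -0.03 to 0.00 and Aqp5 from 0.00 to 0.08 at 10 µM, and Aqp2 from -0.03 to 0.05 at 10 µM and -0.03 to 0.08 at 100 µM. Over all alternatives, values at 10 µM ranged from -1.48 to -0.34 for Mgll, -1.27 to -0.37 for Agpat2, -1.14 to 0.02 for Hnf4a, -0.77 to -0.15 for Nags, -0.47 to -0.14 for Gpx4, -0.64 to -0.25 for Rhbg, -0.56 to -0.26 for Nr1h4, 0.09 to 0.43 for Nfat5 and 0.03 to 0.19 for Wnk4. At 100 µM they ranged from -1.20 to -0.18 for Ppara, -1.05 to -0.31 for Agpat2, -1.01 to 0.02 for Slc25a15, -0.82 to -0.18 for Abcb4, -0.62 to -0.22 for Oxsr1, -0.34 to -0.14 for Prdx2 and 0.06 to 0.49 for Slc38a2.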
